A study of Mus musculus with 7 samples.

Results

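Microtubules of megakaryocytes (MKs), the marrow cells that shed platelets, were examined here through 9 genes: the beta-tubulin isotypes Tubb1, Tubb5 and Tubb6, the alpha-tubulin isotypes Tuba1a, Tuba1b, Tuba1c, Tuba4a and Tuba8, and Mapre1, which encodes the end-binding protein EB1. The genes were chosen by name, as isotypes of the 2 tubulin subunits and a protein of the growing microtubule end. Earlier results of these data were known when they were chosen. Of the 9 genes, 8 had a probe that carries their symbol alone, among 19057 such genes on the array, and all 8 had a mean log2 signal of at least 7.5, the limit that 5428 genes passed. Tuba1c had no such probe and was not analysed here. The other 8 were represented by 14 probes, and the brightest probe of each gene gave the values below unless another is named.

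Alpha- and beta-tubulin form the heterodimer from which microtubules are built. Most cells draw on several general isotypes, whereas Tubb1 is largely restricted to MKs and platelets, where it is the main beta-tubulin of the marginal band, the microtubule coil under the platelet membrane. During platelet formation, bundles of microtubules slide along each other and extend the proplatelet, and EB1 tracks the plus ends of those that are growing.

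The question was whether the transcripts of these genes differ in MKs of mice with raised serotonin (5-HT). One group of C57BL/6J males, aged 10 to 12 weeks, received 5-HT for 24 h from subcutaneous osmotic pumps filled at 25.8 mM, and the other group of the same strain, sex and age received saline for the same time. Each sample pooled the femoral marrow of 3 to 4 mice, enriched on Percoll and selected with beads and an antibody to platelet glycoprotein IIb (CD41). Each was hybridized to 1 array of an Illumina mouse BeadChip, giving 4 5-HT and 3 saline samples. A further saline pool, set aside in the study as an outlier, was not used here. The samples of a group are thus separate pools, and the spread between them is that of pools, not of single mice.

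The isolated cells carried MK transcripts together with those of other marrow cells. Of 19 measured MK markers, 15 were among the genes tested, while Itgb3, Thbs1, Clec1b and Rab27b were under the limit on mean signal. The summed signal of the MK markers was 17322 to 66085 in 5-HT samples and 17151 to 56856 in saline samples. That of 12 granulocyte markers was 274519 to 318407 in 5-HT samples and 220114 to 269925 in saline samples. For 7 eosinophil markers it was 2430 to 20153 in 5-HT samples and 1115 to 1932 in saline samples. Neither of these sums overlapped between the groups in the deposited values. Slightly lower means after 5-HT were found for 3 of the 12 granulocyte markers (Camp, S100a8 and S100a9) and 2 of the 7 eosinophil markers. Of the eosinophil markers only 3 were among the genes tested, and such sums weigh the brightest markers most. The erythroid, B cell and monocyte sums overlapped. The part of these other cells in the tubulin values was not tested, and in such bulk samples fewer cells of a type cannot be told apart from less RNA per cell.

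Arrays also differed as a whole. Every array has a median of 6.68 over all probes, but the median of the genes tested was 9.43, 8.28, 8.96 and 9.03 in 5-HT replicates 1 to 4 and 8.99, 8.15 and 8.32 in saline replicates 1 to 3. The median log2 fold change of all genes tested, 5-HT minus saline, was 0.42, and 4957 of 5428 genes (91.3%) were above 0. Fold changes of the tubulins are therefore set beside this median. The marker lists moved with the arrays too. As mean log2 signal minus the array's median of tested genes, granulocyte markers were at 5.16 to 6.03 in 5-HT samples and 4.96 to 5.90 in saline samples, and eosinophil markers at -1.50 to -0.27 in 5-HT samples and -1.64 to -1.10 in saline samples, so that both overlapped on this scale. Erythroid markers then did not, with -1.24 to -0.87 in 5-HT samples and -0.77 to -0.41 in saline samples. Only 2 of the 7 erythroid markers were among the genes tested. In the deposited values the group means of this list differed by -0.024. Its separation is thus in part set by the subtraction of the array medians.

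The RefSeq promoter windows (build GRCm38.p6, 250 bases before to 50 after the start, 5′ to 3′ on the gene's strand) are shown for Tubb1, the MK isotype, for Tubb5, a general beta isotype, and for Mapre1, the member with the highest fold change. Capitals mark matches on either strand to 5 motifs. These are GATAA, the core of the site of GATA factors, TGANTCA, a site that NF-E2 and AP-1 share, the CCAAT box, the TATA box read as TATAA, and the GC box read as GGGCGG. They lie at chr2:174450345-174450644 (plus strand) for Tubb1, chr17:35838252-35838551 (minus strand) for Tubb5 and chr2:153741037-153741336 (plus strand) for Mapre1.
Tubb1: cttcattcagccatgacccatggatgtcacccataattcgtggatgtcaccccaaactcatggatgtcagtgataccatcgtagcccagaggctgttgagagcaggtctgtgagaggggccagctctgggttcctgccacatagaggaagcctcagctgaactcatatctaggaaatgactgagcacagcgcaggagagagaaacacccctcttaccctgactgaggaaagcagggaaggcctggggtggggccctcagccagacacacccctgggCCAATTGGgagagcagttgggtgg
Tubb5: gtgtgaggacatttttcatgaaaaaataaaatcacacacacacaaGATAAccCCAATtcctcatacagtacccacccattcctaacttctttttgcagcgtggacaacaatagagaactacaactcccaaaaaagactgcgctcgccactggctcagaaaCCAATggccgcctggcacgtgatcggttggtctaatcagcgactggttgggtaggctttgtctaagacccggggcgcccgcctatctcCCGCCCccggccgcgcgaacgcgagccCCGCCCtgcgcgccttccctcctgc
Mapre1: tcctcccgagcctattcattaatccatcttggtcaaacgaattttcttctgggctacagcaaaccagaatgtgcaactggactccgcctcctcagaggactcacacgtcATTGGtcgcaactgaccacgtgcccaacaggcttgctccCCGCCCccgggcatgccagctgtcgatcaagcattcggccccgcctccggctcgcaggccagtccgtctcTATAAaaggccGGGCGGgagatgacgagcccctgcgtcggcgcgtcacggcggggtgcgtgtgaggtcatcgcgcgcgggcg
The Tubb1 window held 1 stretch in which CCAAT reads on both strands with overlap, and no match to the other 4 motifs. The Tubb5 window held 1 GATAA, 2 CCAAT and 2 GGGCGG, and the Mapre1 window 1 CCAAT, 1 TATAA and 2 GGGCGG. Among 32851 windows of the same length, GATAA occurred in 25.4%, TGANTCA in 7.81%, CCAAT in 37.4%, TATAA in 24.9% and GGGCGG in 35.7%. Windows were found for 8 of the 9 genes, and in the 5 not printed no GATAA or TGANTCA was found, Tuba8 holding none of the motifs. These matches describe letters only and do not show binding.

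Tubb1 had log2 signals of 10.81, 8.20, 9.58 and 10.61 in 5-HT replicates 1 to 4, against 10.48, 8.64 and 8.14 in saline replicates 1 to 3. The groups overlapped across nearly their whole range: 5-HT replicate 2 lay with the low saline samples, and saline replicate 1 lay with the high 5-HT samples. The mean of Tubb1 was 9.80 ± 1.20 in samples of 5-HT-infused mice (SD, n = 4) and 9.09 ± 1.23 in those of saline-infused mice (SD, n = 3). The log2 fold change was 0.71 (SE 0.55, 95% interval -0.42 to 1.85), with an adjusted p of 0.563 in limma and a two-sided exact permutation p of 0.429. With 35 arrangements of 3 and 4 arrays the smallest p that the exact test can give is 0.0286. Leaving out single arrays moved the log2 fold change to 1.41 (saline replicate 1), 1.25 (5-HT replicate 2), 0.24 (saline replicate 3), 0.38 (5-HT replicate 1) or 0.44 (5-HT replicate 4), and in none of these fits did Tubb1 pass an adjusted p of 0.05. Array weights, lowest for 5-HT replicate 2 (0.31) and saline replicate 1 (0.33), gave 1.63 (adjusted p = 7.46e-04 in limma), in a fit that called 60.4% of all genes and had a median of 0.69 over them.

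The Tubb1 values come from 1 of 3 probes, for which the probe list gives no accession. The other Tubb1 probes, both assigned to the RefSeq transcript, had log2 signals of 6.66 to 6.98 and 6.54 to 6.83 over the 7 arrays, close to the median of all probes, and differences of 0.10 and 0.07 between the groups. The pattern of Tubb1 thus rests on a single probe.

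Tubb5, a general beta isotype found in most dividing cells, had log2 signals of 13.49, 12.67, 13.54 and 13.38 in 5-HT samples and 12.83, 12.40 and 12.69 in saline samples. Of the 4 5-HT samples, 3 were above every saline sample, and 5-HT replicate 2 lay just under the upper 2 saline samples. The mean was 13.27 ± 0.41 after 5-HT (SD, n = 4) and 12.64 ± 0.22 after saline (SD, n = 3). In limma this difference of 0.63 had an SE of 0.37 and an adjusted p of 0.563. A second Tubb5 probe stayed at 6.60 to 6.85 on all arrays.

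Tubb6, a beta isotype of many tissues, had log2 signals of 8.64, 7.45, 8.50 and 9.18 in 5-HT samples and 8.94, 7.83 and 8.06 in saline samples. The groups overlapped, with the lowest value in 5-HT replicate 2 and the next to highest in saline replicate 1. The mean was 8.44 ± 0.72 after 5-HT (SD, n = 4) and 8.28 ± 0.59 after saline (SD, n = 3). The log2 fold change, 0.17 (SE 0.42, adjusted p = 0.810 in limma), lay below the median of all genes.

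Among the alpha isotypes, Tuba1a, known mainly from neurons, had log2 signals of 11.34, 10.20, 9.97 and 11.23 in 5-HT samples and 10.87, 10.10 and 10.30 in saline samples. The 5-HT samples fell on both sides of the saline samples, with replicates 1 and 4 above them. Means of 10.69 ± 0.70 after 5-HT (SD, n = 4) and 10.42 ± 0.40 after saline (SD, n = 3) differed by 0.26 (SE 0.41, adjusted p = 0.701 in limma), or by 0.043 (without 5-HT replicate 1) to 0.50 (without 5-HT replicate 3) when 1 array was left out. Its second probe differed by 0.21 between the groups, with 10.34 in 5-HT replicate 1 and 8.78 to 9.24 on the other arrays.

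Tuba1b, a general isotype of dividing cells, had log2 signals of 14.19, 13.39, 13.44 and 14.11 in 5-HT samples and 13.72, 13.12 and 13.68 in saline samples. Again 5-HT replicates 1 and 4 were above the saline samples and the other 5-HT samples were within their range. The mean of 13.78 ± 0.43 after 5-HT (SD, n = 4) and that of 13.51 ± 0.34 after saline (SD, n = 3) differed by 0.28 (SE 0.38, adjusted p = 0.665 in limma), or by 0.083 (without saline replicate 2) to 0.41 (without 5-HT replicate 2) when 1 array was left out. Transcripts of Tuba1a, Tuba1b and Tuba1c are nearly identical in their coding sequence, and whether these probes bind more than 1 of them was not tested.

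Tuba4a, an alpha isotype abundant in platelets, had log2 signals of 8.82, 8.52, 8.86 and 9.19 in 5-HT samples and 8.38, 8.10 and 7.91 in saline samples. It was the only one of the 8 genes in which every 5-HT sample was above every saline sample. Its mean was 8.85 ± 0.27 after 5-HT (SD, n = 4) and 8.13 ± 0.24 after saline (SD, n = 3). The log2 fold change was 0.72 (SE 0.37), with an adjusted p of 0.563 in limma and an exact permutation p of 0.0571. After subtracting the median of the genes tested from each array the difference was 0.28 and the groups overlapped.

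Tuba8, an alpha isotype described in testis, muscle and, in humans, platelets, had log2 signals of 10.10, 9.35, 10.19 and 10.69 in 5-HT samples and 9.25, 9.03 and 9.57 in saline samples. Only 5-HT replicate 2 lay within the saline range. Means of 10.08 ± 0.55 after 5-HT (SD, n = 4) and 9.28 ± 0.27 after saline (SD, n = 3) differed by 0.80 (SE 0.39, adjusted p = 0.563 in limma). Another probe for the gene differed by 0.65, with 5-HT replicate 4 highest and saline replicate 2 lowest on both, while the last of its probes, assigned to another transcript, was at 6.63 to 6.83.

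Mapre1 had the highest fold change of the 8 genes. Its log2 signals were 11.76, 10.44, 11.73 and 11.91 in 5-HT samples and 11.16, 9.85 and 10.44 in saline samples. In 3 of the 4 5-HT samples the signal was above every saline sample, whereas 5-HT replicate 2 had the same value as saline replicate 3. The mean was 11.46 ± 0.68 in 5-HT samples (SD, n = 4) and 10.48 ± 0.66 in saline samples (SD, n = 3), a 1.97-fold difference (log2 fold change 0.98, SE 0.42, 95% interval 0.10 to 1.85). In limma the unadjusted p was 0.0306 and the adjusted p 0.563, and the exact permutation p was 0.171. The fold change was at percentile 97.9 of all genes tested.

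The p of Mapre1 in limma depended on single samples and on the limit on mean signal, without which it was 0.0748 (unadjusted). Its unadjusted p was 0.0023 without 5-HT replicate 2 and 0.00245 without saline replicate 1. Leaving out 5-HT replicates 1, 3 and 4 in turn gave a p of 0.0885, 0.0700 and 0.0859, and leaving out saline replicates 2 and 3 gave 0.187 and 0.0653, in limma. The log2 fold change in these limma fits was between 0.66 and 1.32, and the adjusted p was above 0.05 in each. Array weights gave 1.62 (adjusted p = 2.46e-04 in limma), again in the fit that called 60.4% of all genes.

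**Figure D1:**
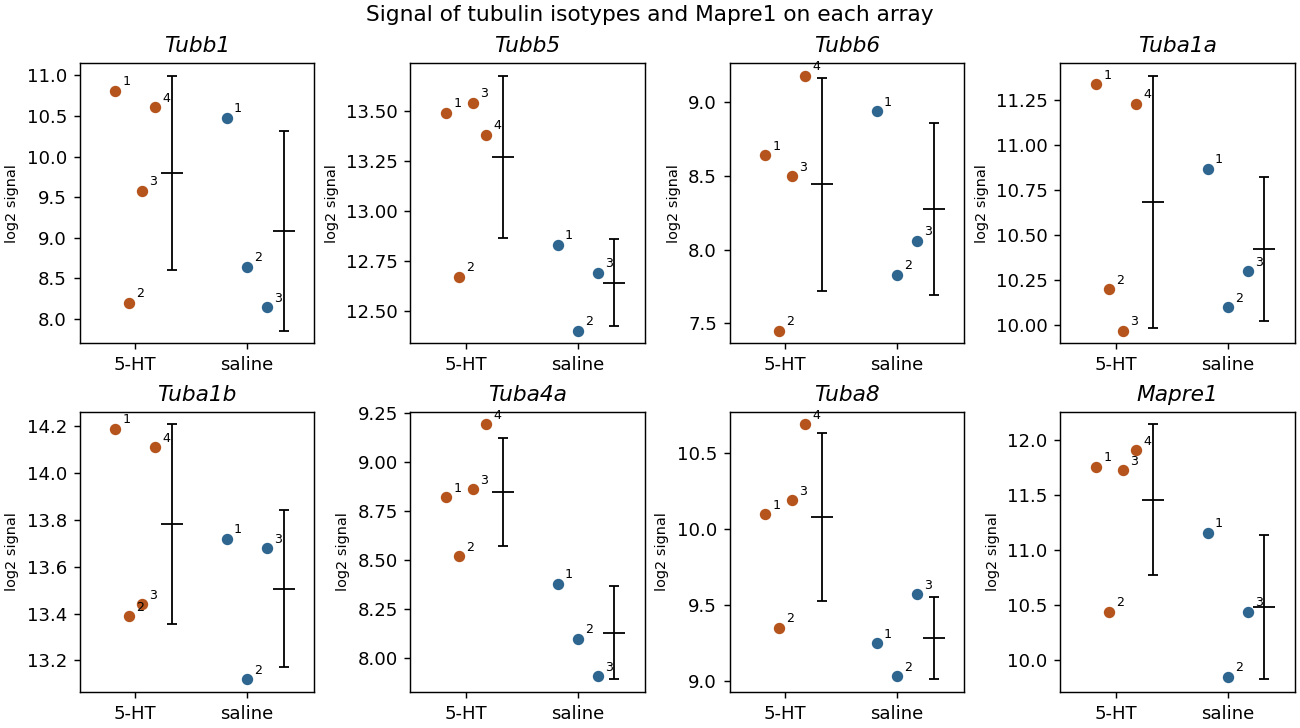
Log2 signal of Tubb1, the other tubulin isotypes and Mapre1 on each array, as deposited, with 5-HT samples on the left and saline samples on the right of each panel. Points are samples and lines the mean with SD (n = 4 and n = 3); only for Tuba4a do the groups not overlap, with 5-HT samples at 8.52 to 9.19 and saline samples at 7.91 to 8.38.

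All 8 log2 fold changes were above 0, and 5 of the 8 were above the median of all genes. The study's thresholds, here called nominal, were a fold change of more than 1.5 and an unadjusted p below 0.05. Past both, 1 of the 8 genes (Mapre1) was higher after 5-HT, where 5.71% of all genes tested were, and 0 were lower, where 0.0184% were. At an adjusted p under 0.05 limma called 0 of the 8, as it called 0 (0%) of all genes tested, while 1 of the 8 and 311 of all had an unadjusted p under 0.05. With array weights it called 6 of the 8, near the 60.4% of all genes. In 1 of the 8 (Tuba4a) every 5-HT sample was above every saline sample, against 6.28% of all genes, and in 0 was every 5-HT sample below, against 0.129%. A count of 1 among 8 is near these backgrounds and is no result about the isotypes as a group.

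**Figure D2:**
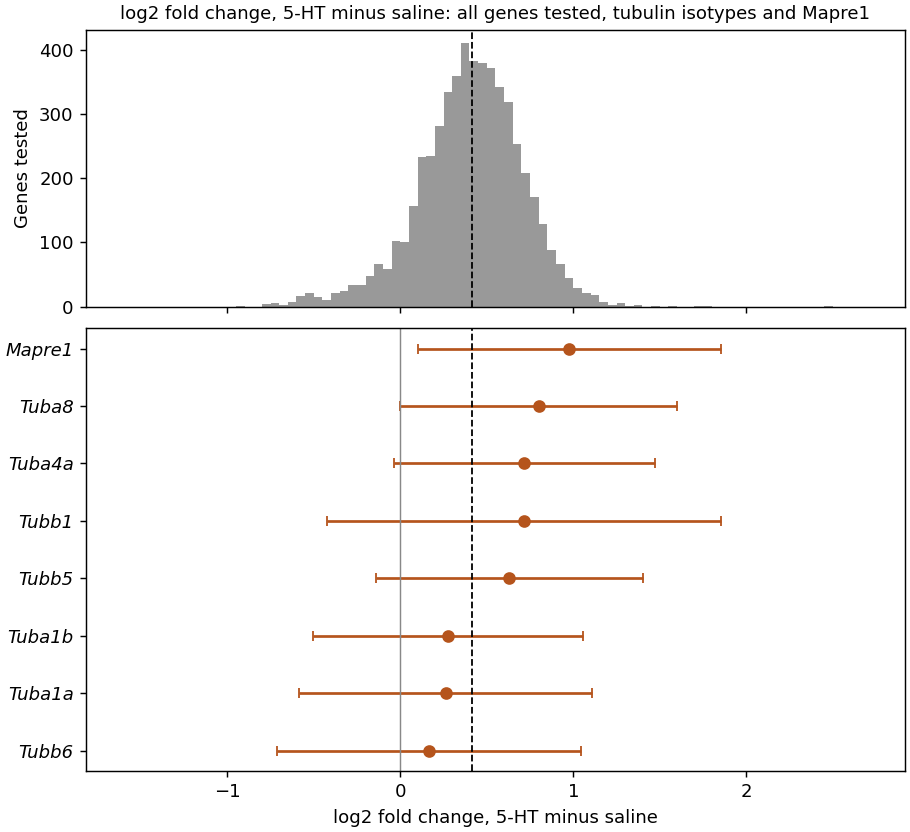
Upper panel, number of genes tested by log2 fold change, 5-HT minus saline; lower panel, the same measure for the 8 genes, with 95% intervals from limma, and a dashed line in both at the median of all genes tested, 0.42. The interval of Mapre1, 0.10 to 1.85, is the only one that leaves out 0, and all 8 intervals hold the dashed line.

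With the array medians subtracted, the differences were 0.54 for Mapre1, 0.36 for Tuba8, 0.28 for Tuba4a, 0.27 for Tubb1 and 0.19 for Tubb5, and -0.16 for Tuba1b, -0.18 for Tuba1a and -0.27 for Tubb6. The sign of the last 3 was thus opposite to that in the deposited values. After quantile normalization the same 3 genes were at -0.03 (Tuba1b), -0.24 (Tuba1a) and -0.19 (Tubb6), and after cyclic loess at -0.16, -0.24 and -0.22, while the other 5 stayed above 0. The median of all genes was 0.08 after quantile and 0.03 after cyclic loess normalization. For Mapre1 the difference was 0.47 after quantile and 0.48 after cyclic loess normalization, with unadjusted p of 0.101 and 0.106 in limma, and 0.54 with an unadjusted p of 0.0455 in limma after subtraction of the array medians, where the fold change was below 1.5. Over all genes, 310 were higher and 1 lower past the nominal thresholds as deposited, against 65 higher and 92 lower after quantile normalization, 41 and 103 after cyclic loess and 52 and 129 after centring on the array medians.

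**Figure D3:**
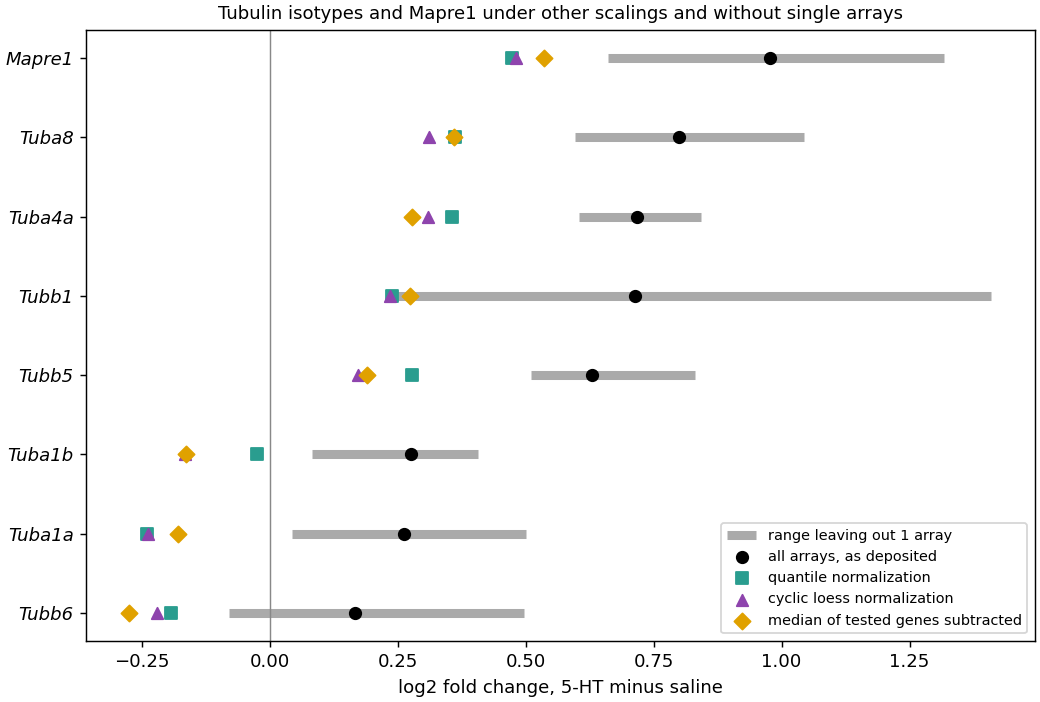
Log2 fold changes of the 8 genes, 5-HT minus saline, as deposited (black), after quantile or cyclic loess normalization or subtraction of the median of tested genes (coloured), with grey bars for the range when 1 array is left out. Tuba1a, Tuba1b and Tubb6 fall below 0 under all 3 rescalings, and Mapre1 is the highest of the 8 under each.

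Whether Tubb1 differed from the other isotypes in its response was asked within arrays. These include Tuba4a and Tuba8, described above as isotypes of platelets too. The log2 signal of an isotype was subtracted from that of Tubb1, which removes any shift that an array has in common. Levels of different probes are not compared by this, since only the difference between groups is read. A difference in spread between arrays is not removed, and the SD over all probes ran from 0.96 (saline replicate 2) to 1.33 (5-HT replicate 1). For Tubb1 minus Tubb5 the difference between 5-HT and saline samples was 0.08, for Tubb1 minus Tuba4a -0.0042 and for Tubb1 minus Tuba8 -0.09. For Tubb1 minus Tubb6 it was 0.55, for Tubb1 minus Tuba1a 0.45 and for Tubb1 minus Tuba1b 0.44. Leaving out saline replicate 3 brought the difference from Tubb6 to 0.18 and that from Tuba1a to 0.04, and leaving out saline replicate 1 brought them to 0.91 and 0.93. In none of the 6 comparisons did the groups separate, with exact permutation p of 0.4 to 1 and adjusted p of 1 over the 6. The spread was wide, with SDs of 0.61 to 0.99 in 5-HT samples and 0.73 to 1.34 in saline samples, and these p-values do not show that Tubb1 and the other isotypes act alike.

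Tubb1 minus the mean of the 6 other isotypes was -0.29, -2.06, -1.17 and -0.69 in 5-HT replicates 1 to 4 and -0.19, -1.46 and -2.23 in saline replicates 1 to 3. The groups covered the same range, with a mean of -1.05 ± 0.77 after 5-HT (SD, n = 4), one of -1.29 ± 1.03 after saline (SD, n = 3) and a difference of 0.24. This difference was 0.79 without saline replicate 1, the highest of the leave-one-out values, and -0.23 without saline replicate 3, the lowest. With the mean of all probes of a gene it was -0.07.

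**Figure D4:**
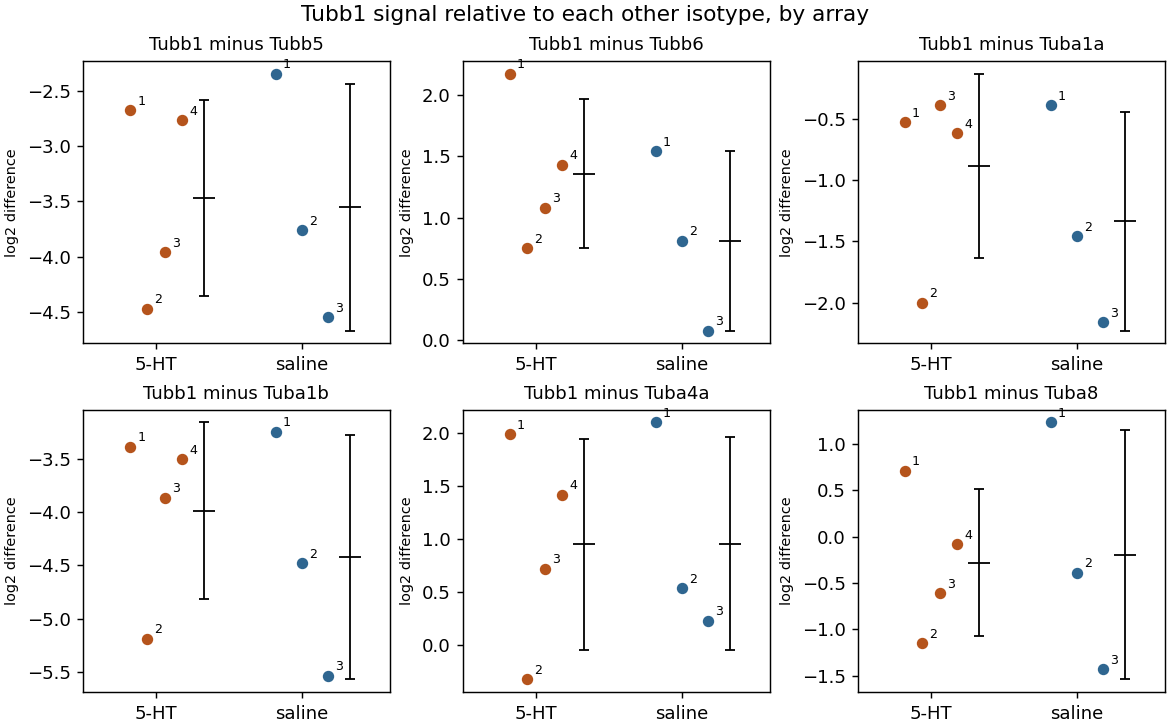
Log2 signal of Tubb1 minus that of each other isotype on each array, 5-HT samples left and saline samples right, with means and SD (n = 4 and n = 3). The groups overlap in all 6 panels, and the differences between group means run from -0.09 (Tuba8) to 0.55 (Tubb6).

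Tubb1 varied over the arrays with MK genes more than with the other tubulins. Over the 7 arrays, the 5 genes with the highest Pearson correlation with Tubb1 were Pdzk1ip1 (0.996), Alox12 (0.991), B3galnt2 (0.991), Gp9 (0.990) and Plek (0.989). Alox12 encodes the platelet-type lipoxygenase, Gp9 a subunit of the platelet receptor for von Willebrand factor, and Plek pleckstrin, a kinase substrate of platelets. With array medians subtracted, Pdzk1ip1 (0.989), Alox12 (0.976), Gp9 (0.975) and Plek (0.972) remained the 4 highest, followed by Rsad2 (0.969). These correlations describe 7 arrays that differ in overall signal and in cell makeup, and no p is given for them.

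The megakaryocyte marker list was also set against Tubb1, a choice made after the values were seen. With array medians subtracted, the correlation of the 15 tested MK markers with Tubb1 had a median of 0.79, with Fli1 lowest at -0.63 and Gp9 highest, and 7 of 15 were over 0.8, against 3.32% of all genes tested. Other marker lists had medians with Tubb1 of 0.57 (4 monocyte and macrophage markers), 0.50 (3 eosinophil markers) and -0.84 (12 granulocyte markers), with 0 markers over 0.8 in each. For Tubb5 the median over the MK markers was -0.45, and for Mapre1 it was 0.53. Subtracting the array medians can itself shape such correlations. The Tubb5 probe ranged over 1.14 log2 units in the deposited values. The part of the subtraction in its negative correlations was not tested.

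The mean log2 signal of the 15 MK markers was 11.127, 9.015, 9.986 and 11.072 in 5-HT replicates 1 to 4 and 11.003, 9.103 and 8.997 in saline replicates 1 to 3. Tubb1 minus this mean was -0.32, -0.82, -0.41 and -0.46 in 5-HT samples and -0.52, -0.46 and -0.86 in saline samples. Tubb1 itself ran from 8.14 to 10.81 over the arrays, and its distance from the marker mean from -0.86 to -0.32. That distance averaged -0.50 ± 0.22 after 5-HT (SD, n = 4) and -0.61 ± 0.21 after saline (SD, n = 3), which differ by 0.11.

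The other isotypes did not follow Tubb1 closely. In the deposited values their correlation with Tubb1 ran from 0.58 for Tuba8 to 0.90 for Tubb6, over arrays that share their overall shifts. With array medians subtracted it was -0.57 for Tubb5, -0.49 for Tuba1b, -0.32 for Tuba4a, -0.25 for Tuba8, 0.15 for Tuba1a and 0.42 for Tubb6, and 0.43 for Mapre1. The tested genes nearest to Mapre1 were Cpsf1, Tprn, Xrcc6, Isy1 and Cstf1 in the deposited values, with correlations of 0.997 to 0.995. With medians subtracted they were Ankmy2 (0.982), Klhl6 (0.968), Tmem106c (0.965), Gtpbp1 (0.963) and Ctnnbl1 (0.962), so that 0 of the 5 genes were shared between the scales.

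**Figure D5:**
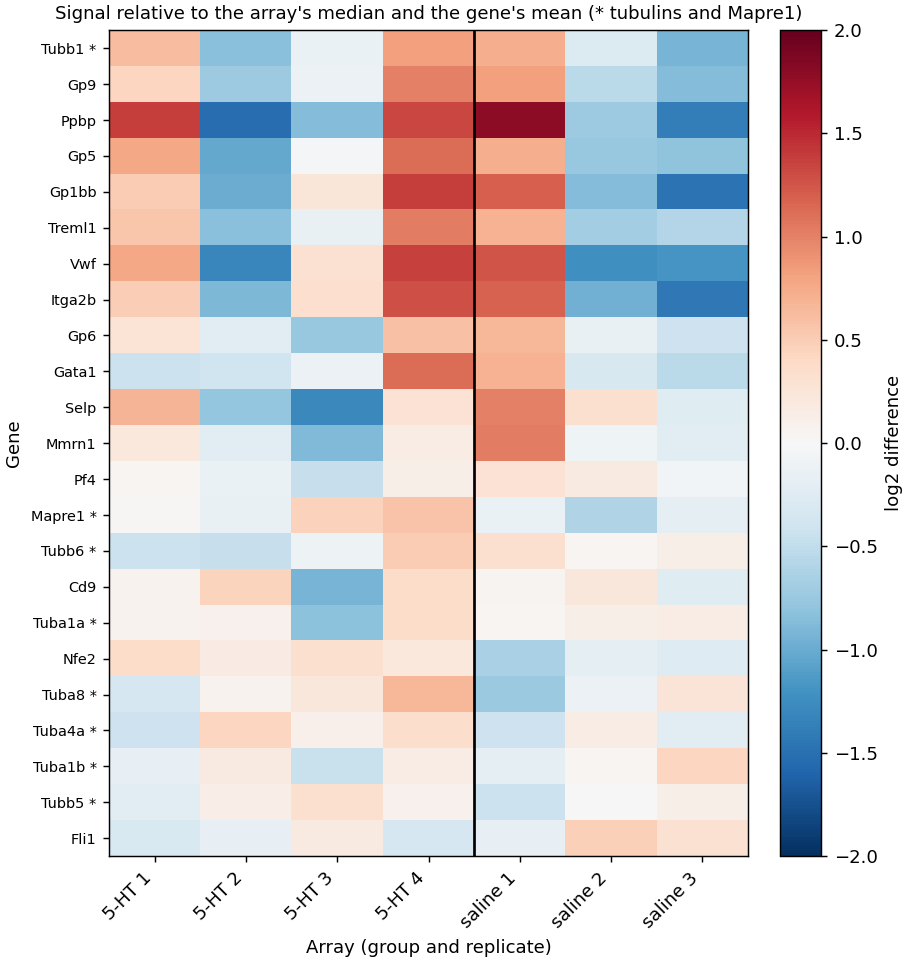
Signal of the 8 genes (marked *) and the 15 tested MK markers on each array, 5-HT arrays left of saline arrays, as colour for the log2 difference from the array's median of tested genes and from the gene's own mean; rows run by their correlation with Tubb1. Tubb1 and the rows next to it are high in 5-HT replicates 1 and 4 and saline replicate 1 and low in 5-HT replicate 2 and saline replicate 3, while Tubb5 is lowest in saline replicate 1.

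Other genes of the microtubule system were taken from 5 lists. Of 15 other tubulins, 4 were tested, with a median log2 fold change of 0.51. The highest were Tubb2b, a beta isotype of neurons, at 0.66 and Tubg1, the gamma-tubulin of the centrosome, at 0.56, and the lowest was Tubb4b at 0.28. Tubb2b had 9.15, 7.49, 8.42 and 9.78 in 5-HT samples and 9.18, 7.51 and 7.45 in saline samples, with saline replicate 1 among the high samples, as for Tubb1.

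The 15 tested genes of tubulin folding, the prefoldin and CCT chaperones and the tubulin cofactors, had a median of 0.28, below that of all genes. Tbcb, a cofactor that holds alpha-tubulin, had 11.65, 11.04, 11.33 and 11.44 in 5-HT samples and 10.76, 10.75 and 10.84 in saline samples, which did not overlap. Its fold change was 0.58 on the log2 scale (SE 0.36, adjusted p = 0.563 in limma). Tbcd was at 0.53, and the lowest was Tcp1, a CCT subunit, at -0.11. Without 5-HT replicate 1 the median of this list was 0.063, and without saline replicate 1 it was 0.58. It was -0.15 after quantile and -0.17 after cyclic loess normalization, the only 1 of the 5 lists whose median fell below 0 there.

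Proteins of the plus end and other microtubule-associated proteins, the list nearest to Mapre1, had a median of 0.45 over 13 genes. Map1lc3b, which marks autophagosomes, was at 0.77 and Map1s at 0.71, and Clasp2, which stabilizes plus ends, was lowest at -0.35. Clasp2 had 8.03, 7.78, 7.15 and 7.37 in 5-HT samples and 7.30, 8.03 and 8.46 in saline samples, which overlapped. Mapre2, the other end-binding gene tested, was at 0.45. The list median was 0.20 without 5-HT replicate 1 and 0.76 without saline replicate 1.

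The 6 tested genes of the gamma-tubulin complex and of tubulin modification had a median of 0.52. Tubgcp2, a subunit of the nucleating complex, was at 0.69, Sirt2, a tubulin deacetylase, at 0.67 and Ttll12 lowest at 0.19. In Mzt2 of the same list the groups did not overlap, the 5-HT samples being higher by 0.60 on average. Dynein, dynactin and kinesin-1, the motors and their adaptor along microtubules, had a median of 0.58 over 13 genes, with Actr1a at 0.83 and Dctn2 at 0.77, both of dynactin, and Dctn4 and Dynll1 lowest at 0.22 each.

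In each of the 5 lists, 0 genes passed an adjusted p under 0.05, 0 passed the nominal thresholds, and 0 had an unadjusted p under 0.05 in limma. Over all genes tested, 0% passed the first, and 5.71% were higher and 0.0184% lower past the second. Above the median of all genes were 3 of 4 other tubulins, 3 of 15 folding genes, 8 of 13 plus-end and associated proteins, 4 of 6 gamma-tubulin and modifying genes and 9 of 13 motor genes. The groups were separate only in Tbcb and Mzt2, both with higher 5-HT samples, where 6.28% of all genes tested were.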

How the data were processed

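Log2 signals of 4 5-HT and 3 saline samples were used. As deposited, these log2 values had been exported from GenomeStudio, log-transformed and median-normalized by the authors, and background subtraction is not stated. The table of signals before normalization was not used, since its 14 value columns match no sample label. Of 45281 probes, 34885 carried 1 gene symbol, 18 several and 10378 none, and 34807 gene identifiers matched RefSeq (GRCm38.p6), which changed 0 symbols. Each gene was represented by its brightest probe.

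A linear model with no term besides the group was fitted in limma 3.58.1 (R 4.3.3; lmFit, then eBayes). It had 5 residual and 18.9 prior degrees of freedom, and p-values were adjusted by Benjamini-Hochberg over 5428 genes. For single values a two-sided exact permutation test was run. The genes and lists were chosen with earlier results of these data known. Named were the 9 genes, the 2 highest and the lowest gene of each list by fold change, and the 5 genes most correlated with Tubb1 and with Mapre1; Itgb3, Thbs1, Clec1b, Rab27b, Fli1, Mapre2, Mzt2, Dynll1, Camp, S100a8 and S100a9 were named after their values were seen. Alternatives were quantile and cyclic loess normalization, centring on tested genes, other filters and probe choices, a trended robust eBayes, a replicate block, array weights and leaving out each array. The procedure was tested on simulated data. The number of arrays limits the precision.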

Additional observations from a re-analysis of the deposited data

Results flagged for a closer look

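In 4 of 36 groups of 4 5-HT samples examined, 1 sample lay further from the others than Dixon's 95% criterion allows. Among independent groups chance alone flags about 1 in 20. The 36 groups share the same 4 arrays, so their count cannot be held against that rate. Mapre1 had 10.44 in 5-HT replicate 2, against 11.73 to 11.91 in the other 5-HT samples. Tubb1 minus Tuba1a was -2 in the same replicate, against -0.62 to -0.39 in the others. Tubgcp2 also had its low value there, 7.84, against 8.87 to 9.07. The second probe of Tuba1a had 10.34 in 5-HT replicate 1, against 8.78 to 9.03 in the others. The median of the genes tested was also lowest among 5-HT samples in replicate 2, at 8.28 against 8.96 to 9.43. With the array medians of the genes tested subtracted, Mapre1 was 2.16 in 5-HT replicate 2 and 2.33 to 2.88 in the other 5-HT samples.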

How the results depend on the processing

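The count of all genes at an adjusted p under 0.05, 0 in the deposited values, was 3 by a trended robust eBayes, 45 with the replicate block, which also drops 5-HT replicate 4 since no saline sample has its number, 3281 with array weights (3185 higher, 96 lower) and 0 to 77 when 1 array was left out, 77 without saline replicate 1. The array weights, estimated under the group labels and stopped before convergence, ran from 0.31 to 3.20. Only with them did any of the 8 genes pass an adjusted p of 0.05 in limma: Tubb1, with a log2 fold change of 1.63, Mapre1 (1.62), Tuba8 (1.19), Tuba4a (0.98), Tubb5 (0.86) and Tubb6 (0.86), 6 of 8, where 60.4% of all genes passed and their median was 0.69. The count past the nominal thresholds, 311, was 157 after quantile normalization, 144 after cyclic loess (41 higher, 103 lower), 181 after centring (52 higher, 129 lower), 3345 with array weights, 1241 with the replicate block and 55 (without saline replicate 2) to 1690 (without 5-HT replicate 2) when 1 array was left out. Leaving out saline replicates 1 and 3 gave 1490 and 61, and 5-HT replicates 1, 3 and 4 gave 156, 69 and 187. Which of the 8 genes passed the nominal thresholds also depended on the fit, with the unadjusted p from limma in brackets. With no filter on dim genes, where 454 of 19057 genes passed, Mapre1 did not (unadjusted p = 0.0748 in limma). In that fit Tubb5 (0.0351), Tuba4a (0.00648) and Tuba8 (0.0424) did. Beside Mapre1, Tuba4a (0.0107) passed with the mean of probes, where 357 genes did. With the trended robust eBayes, where 369 did, Tubb5 (0.0272) passed beside Mapre1. With the replicate block, where 1241 did, Tubb5 (0.0469), Tuba4a (0.0436) and Tuba8 (0.0454) passed beside Mapre1. Without 5-HT replicate 2, where 1690 did, Tubb1 (0.0211), Tubb5 (0.0234), Tuba4a (0.0255) and Tuba8 (0.0075) passed beside Mapre1. Tubb1 (0.00116) passed beside Mapre1 without saline replicate 1, where 1490 did. Without 5-HT replicate 1, where 156 did, Tuba4a (0.0475) passed and Mapre1 did not. All of the 8 but Tuba1b passed with array weights, where 3345 did. The numbers were not taken to pair samples. Same-numbered samples correlated at 0.15, 0.68 and -0.25. Of the 5-HT samples, replicates 1 and 2 correlated best with their own number, and replicate 3 with saline replicate 1 (0.24). These correlations cannot decide whether samples were paired.

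Directions turned for Tuba1a (-0.24 after quantile, -0.24 after cyclic loess, -0.18 after centring), Tuba1b (-0.026, -0.16 and -0.16) and Tubb6 (-0.19, -0.22 and -0.27, -0.08 with the replicate block, as without 5-HT replicate 4 alone, and -0.08 to 0.50 when 1 array was left out). The dimmest Tuba8 probe gave -0.066. Tubb1 minus Tubb5 was -0.039 after quantile normalization, -0.032 with the mean of probes and -0.42 to 0.69 when 1 array was left out. The leave-one-out ranges were -0.12 to 1.03 for Tubb1 minus Tuba1b, -0.37 to 0.57 for Tuba4a, -0.70 to 0.63 for Tuba8, 0.04 to 0.93 for Tuba1a and 0.18 to 0.91 for Tubb6, and with the mean of probes the last 2 were 0.059 and 0.13. The cause of these changes was not tested.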
